A study of Homo sapiens with 6 samples.

Results

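The microphthalmia (MiT/TFE) transcription factors MITF, TFEB, TFE3 and TFEC and the genes that hold them at the lysosome, FLCN, FNIP1, FNIP2, RRAGC and RRAGD, were followed as 9 genes out of the 58870 in the count table. They were taken by gene name, as a family and its regulators, and not by a threshold on their values. Earlier results of these data were known when they were chosen. RNA had been sequenced from WM164, an established human melanoma cell line of the melanocytic, MITF-high type, in 3 libraries labelled GFP and 3 labelled T-MGM. The GFP cells overexpressed green fluorescent protein as a control. The T-MGM cells overexpressed a tethered dimer, in which the melanocyte isoform of MITF is joined by a flexible linker to MAFG, a small MAF protein that lacks a transactivation domain of its own. Both came from lentiviral vectors, which the methods describe with an EF1α promoter and blasticidin selection. Nothing in the labels says whether the 3 libraries of a group came from separate cultures, so the p-values measure the spread between these libraries, which may be technical.

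MiT/TFE proteins are basic helix-loop-helix leucine zipper factors that pair with themselves or with each other and bind E-boxes. In fed cells the folliculin complex, FLCN with FNIP1 or FNIP2, stimulates GTP hydrolysis by RagC and RagD, and the Rag GTPases then bring TFEB, TFE3 and the longer MITF isoforms to mTORC1 on the lysosome, which phosphorylates them and keeps them out of the nucleus. The melanocyte isoform of MITF lacks the amino-terminal stretch that contacts the Rag GTPases, and it drives pigment genes in melanocytes and melanoma. FLCN, FNIP1, FNIP2, RRAGC and RRAGD are in turn known targets of the MiT/TFE factors, with RRAGD known to be raised by them in melanoma and kidney cancer, and loss of FLCN is known for raising their nuclear activity in the kidney.

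Library totals were 35057239 to 38738065 counts in GFP and 44577774 to 59250663 in T-MGM. MITF is described below, and MAFG, the other gene of the construct, was not higher in the libraries labelled T-MGM (log2 fold change -0.06, SE 0.04, DESeq2 adjusted p = 0.236), so neither gene checks the labels. Of 6 melanocytic markers, 2 were higher and 4 lower, with a summed level of 2487 to 2519 CPM (counts scaled to a common library total) in GFP against 2172 to 2246 in T-MGM. In log2 units DCT was at -2.49, MLANA at -0.68, TYR at -0.35 and S100B at -0.21. SOX10 was at 0.11 and PMEL at 0.05, and both were below 0 after correction for GC content and transcript length (-0.03 and -0.02). SOX10 had the most counts of the 6 and so weighs most in the sum. Of 5 fibroblast markers, COL1A1, LUM and PDGFRA were higher, with a summed 9.22 to 9.44 CPM in GFP against 16.5 to 17.6 in T-MGM, while COL1A2 had at most 5 counts in any library. Of the immune markers LYZ, PTPRC and CD3E, LYZ was lower at -1.32 log2 units (SE 0.31; adjusted p = 7.83e-05, DESeq2), and PTPRC and CD3E had at most 2 counts in any library. Of 4 keratinocyte markers only KRT10 was tested, and of 3 endothelial markers 2 were, and none of these passed. Summed levels of the 4 and the 3 were 20.1 to 22.1 CPM and 0.485 to 0.826 CPM in GFP. In T-MGM they were 19.9 to 23.4 CPM and 0.793 to 1.12 CPM. KRT5, KRT14 and KRT1 had at most 5 counts in any library. What part these markers have in the results below was not tested.

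Which of these genes differed between the tethered dimer and the GFP control was asked in a DESeq2 fit over all genes. In the libraries labelled T-MGM, TFE3, MITF and RRAGD were higher and RRAGC and FNIP1 lower, at a DESeq2 adjusted p at or under 0.05. The changes were small, with MITF 5.78%, RRAGD 13.4% and TFE3 21.8% higher and FNIP1 and RRAGC at -5.64% and -14%, and 0 of the 9 passed the study's further requirement of more than 2-fold, where 4.63% of all tested genes did. FLCN, FNIP2 and TFEB did not pass, and TFEC was too low to be tested. Thus 5 of 8 tested members passed. In the same fit 38.4% of the 19135 tested genes passed, 19.2% higher and 19.2% lower. The median log2 fold change was -0.01 over the 8 members and -0.00 over all tested genes. Normalized counts (counts divided by a size factor per library) did not overlap between groups for 6 of the 8, beside 46.8% of all tested genes (23.4% in each direction). In edgeR, which leaves out genes with few counts, 5 members passed, beside 46.3% of 15648 tested genes.

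**Figure D1:**
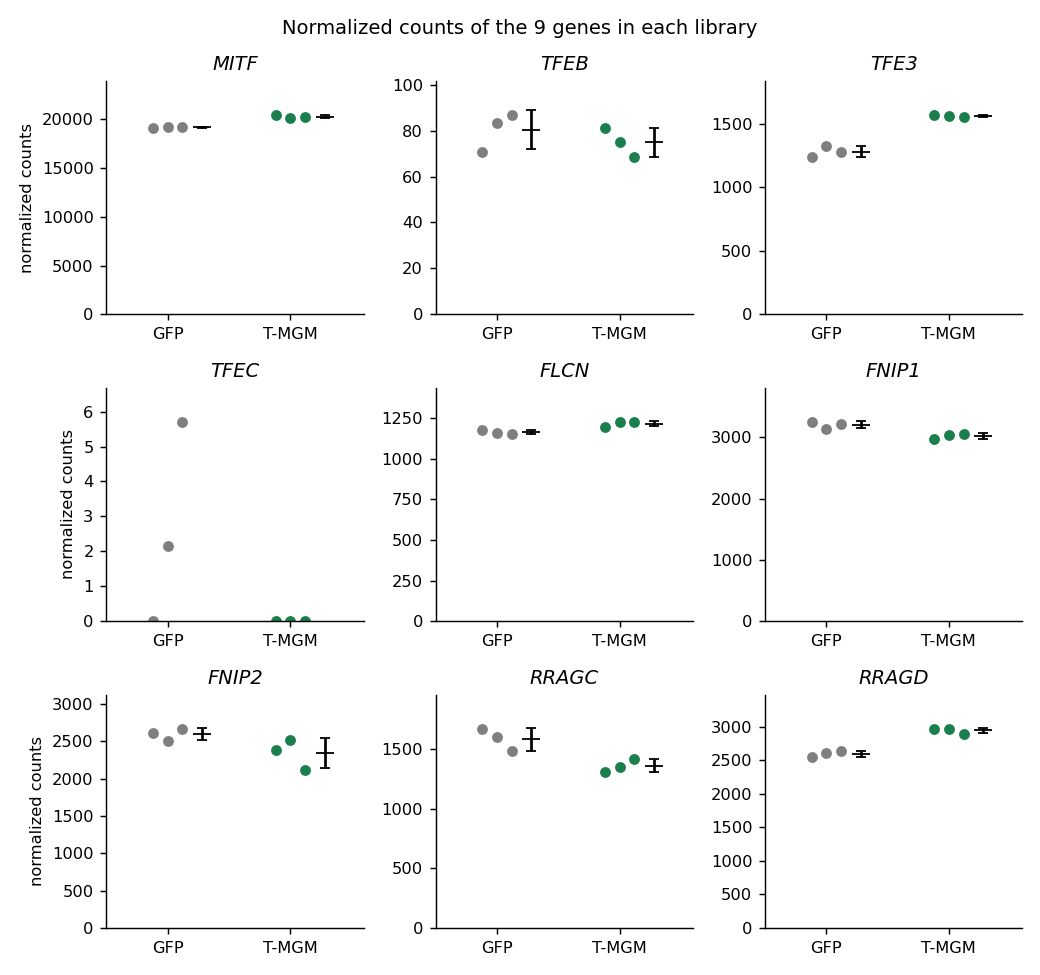
Normalized counts of the 9 genes, 1 panel per gene with the axis starting at 0. Points are libraries (grey GFP, green T-MGM), and the bar beside them is the mean ± SD of 3 libraries, left out for TFEC. The groups are apart for MITF, TFE3, FLCN, FNIP1, RRAGC and RRAGD, and overlap for TFEB, TFEC and FNIP2.

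MITF (ENSG00000187098.15; chr3:69739456-69968336, GRCh38, plus strand), the lineage factor of melanocytes, had 19111, 19168 and 19204 normalized counts in GFP replicates 1 to 3. In T-MGM replicates 1 to 3 it had 20447, 20121 and 20240. Every library labelled T-MGM lay above every GFP library, and the libraries of a group differed by little, 19161 ± 46.9 in GFP and 20269.5 ± 165 in T-MGM (SD, n = 3 each). The log2 difference was 0.08 ± 0.02 (SE; adjusted p = 4.8e-07, DESeq2), and its 95% limits correspond to a 1.04-fold to 1.08-fold increase. The 42 other genes within 10 Mb with at least 50 mean normalized counts had a median log2 fold change of 0.08. After correction for GC content and transcript length MITF was at 0.18 and these neighbours had a median of 0.18. With total counts as scaling the change of MITF was 0.03 (DESeq2 adjusted p = 0.156), where the median gene was at -0.06. In TPM, abundance scaled for length and depth, the value was -0.06 on log2(TPM + 1) (limma adjusted p = 0.10). The median gene was at -0.13 on that scale, and MITF was at 0.07 relative to it. The counts are per gene, so isoforms are not told apart, and reads of the construct that match the gene would be counted with it.

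MITF transcription starts at several promoters, and 2 stretches are shown because one belongs to the isoform in the construct and the other holds part of the MAF recognition element. They come from the RefSeq promoter table (GRCh38.p14), in which 8 of the 9 genes have an entry, RRAGD being the one without. The 250 bases before each of 14 annotated starts were searched on both strands for CACGTG (the E-box of MiT/TFE factors), CATGTG (M-box core), TGACGTCA (cAMP response element), TGAGTCA (AP-1 and CNC-MAF core), TGCTGAC (part of the MAF recognition element) and CTTTGAT (TCF/LEF site). No 2 of the matches shown overlap, and capitals mark a match. The start at 69936592, inside the gene body, is that of the melanocyte isoform, and chr3:69936368-69936467 before it holds a TCF/LEF site and a cAMP response element. The most upstream of the 3 MITF starts in the table, 69739464, has the TGCTGAC match in chr3:69739219-69739265. Both are on the plus strand and meet no exon in GENCODE 44.
MITF, before the melanocyte start: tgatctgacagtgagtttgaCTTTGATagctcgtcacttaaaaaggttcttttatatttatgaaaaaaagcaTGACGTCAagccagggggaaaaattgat
MITF, before the most upstream start: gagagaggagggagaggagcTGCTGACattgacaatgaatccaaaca
Of 35116 such windows over all genes, 2.26% held CTTTGAT, 1.65% held TGACGTCA and 3.43% held TGCTGAC. A match is a description of these letters and was not tested for binding.

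Of the upstream regulators known to act on the melanocyte promoter, LEF1 and SOX10 were higher, CREB1 was lower and PAX3 did not pass. LEF1, the nuclear effector of WNT signalling, had a mean of 19250.5 ± 161 normalized counts in GFP and of 26509 ± 101 in T-MGM (SD, n = 3 each), and rose by 0.46 ± 0.01 log2 units (SE; adjusted p = 8.39e-219, DESeq2). SOX10, a neural crest factor, rose by 0.11 ± 0.02 log2 units (SE; adjusted p = 4.24e-10, DESeq2), where its 196 neighbours had a median of 0.12, and it turned to -0.03 after GC correction (DESeq2 adjusted p = 0.0484). CREB1, the cAMP response factor, was at -0.13 (DESeq2 adjusted p = 0.0167), where its 74 neighbours had a median of -0.24, and it turned to 0.03 after GC correction.

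TFE3 (ENSG00000068323.17; chrX:49028726-49043410, minus strand), a broadly expressed relative of MITF, had the largest change of the 8 tested genes in the DESeq2 fit, though not after GC correction, with total-count scaling or in TPM. Its normalized counts were 1238, 1325 and 1282 in GFP replicates 1 to 3. T-MGM replicates 1 to 3 had 1570.1, 1564 and 1553. The libraries labelled T-MGM were all above the GFP libraries and lay closer together than these. The means were 1281 ± 43.9 and 1562 ± 8.84 (SD, n = 3 each), and the difference of 21.8% was 0.28 ± 0.05 in log2 units (SE; adjusted p = 8.15e-08, DESeq2). Leaving out 1 library gave 0.26 to 0.31. The 94 genes within 10 Mb had a median of 0.12. TFE3 transcripts are rich in G and C (59.2%), and after correction for GC content and length the value fell to 0.16 (DESeq2 adjusted p = 0.0041), with neighbours at 0.07. On log2(TPM + 1) it was 0.12 and did not pass (limma adjusted p = 0.127), on a scale where the median gene was at -0.13. Across GC content, log2 fold changes of 12613 genes rose with a Spearman's rho of 0.376, given as a description, since genes of a library share its base composition.

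TFEB (ENSG00000112561.18; chr6:41683978-41736259, minus strand), the main lysosomal regulator of the family, was low and did not pass. GFP replicates 1 to 3 held 70.8, 83.4 and 86.8 normalized counts of it, against 81.2, 75.1 and 68.6 in T-MGM replicates 1 to 3. The groups overlapped, with a difference of -0.10 ± 0.22 log2 units (SE; adjusted p = 0.781, DESeq2). The 95% limits ran from 0.686-fold to 1.26-fold, so the counts leave room for a change in either direction within these limits. TFEC (ENSG00000105967.16; chr7:115935148-116159896, minus strand), a member otherwise known from macrophages, had raw counts of 0, 2 and 5 in GFP and 0 in all 3 libraries labelled T-MGM. It received no adjusted p, and no fold is given at these counts.

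**Figure D2:**
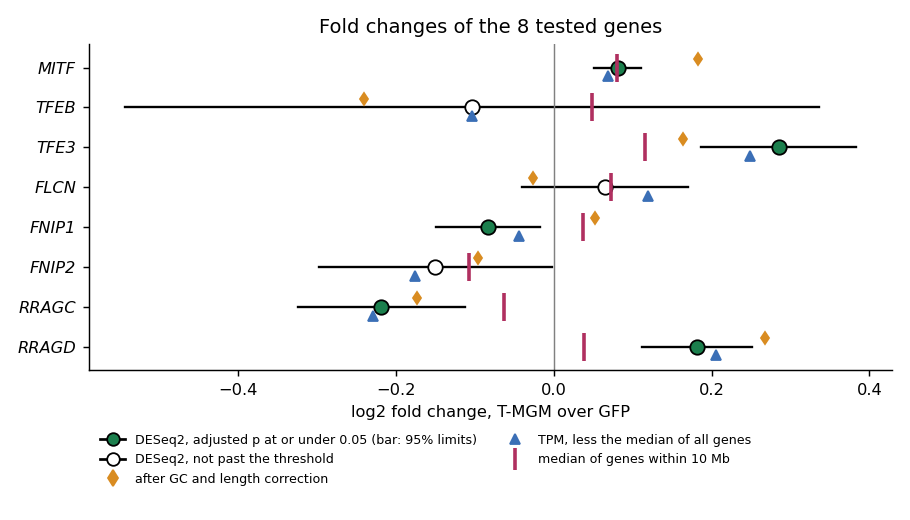
Log2 fold change (T-MGM over GFP) of the 8 tested genes, with 95% limits from DESeq2. Diamonds show values after GC and length correction, triangles TPM values on log2(TPM + 1) less the median of all genes, and vertical ticks the median of genes within 10 Mb. TFE3 and RRAGD lie to the right of 0 and RRAGC to the left on all of these scales, MITF sits on its neighbours' median, and FNIP1 and FLCN cross 0 after GC correction.

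FLCN (ENSG00000154803.13; chr17:17212212-17237188, minus strand) encodes folliculin, the tumour suppressor lost in Birt-Hogg-Dubé syndrome. In normalized counts, GFP replicates 1 to 3 stood at 1180.0, 1159 and 1156, against 1199, 1229 and 1226 in T-MGM replicates 1 to 3. The groups did not overlap, but the step was small and did not pass (log2 fold change 0.06, SE 0.05, DESeq2 adjusted p = 0.384; 95% limits 0.972-fold to 1.13-fold). After GC correction it was -0.03. The end of the gene overlaps MPRIP on the opposite strand, which had a mean of 11706 normalized counts. The kit in the labels does not keep strand, the kit in the methods does, and if strand was lost, the reads of both genes there cannot be told apart.

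FNIP1 (ENSG00000217128.12; chr5:131641714-131797017, minus strand) and FNIP2 (ENSG00000052795.13; chr4:158769026-158908050, plus strand) encode the partners of folliculin. FNIP1 had 3256, 3143 and 3215 normalized counts in GFP replicates 1 to 3, against 2969, 3036 and 3062 in T-MGM replicates 1 to 3. All 3 libraries labelled T-MGM were below the GFP libraries, with a log2 difference of -0.08 ± 0.03 (SE; adjusted p = 0.0353, DESeq2). This call was fragile, being lost in 12 of 16 alternative fits, among them edgeR (adjusted p = 0.0518) and 5 of the 6 fits without 1 library (DESeq2 adjusted p = 0.0553 to 0.160). After GC correction, where its 115 neighbours had a median of 0.09, FNIP1 turned to 0.05.

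FNIP2 had 2609, 2509 and 2674 normalized counts in GFP replicates 1 to 3, against 2386, 2522 and 2120.1 in T-MGM replicates 1 to 3. T-MGM replicate 2 lay within the GFP range and T-MGM replicate 3 well under it. The log2 fold change of -0.15 (SE 0.08) did not pass (DESeq2 adjusted p = 0.109). Without T-MGM replicate 2 it was -0.21 and passed (DESeq2 adjusted p = 0.000305), and without T-MGM replicate 3 it was -0.08 (DESeq2 adjusted p = 0.180). FNIP2 was lower in all 16 alternative fits and passed in 6 of them, among them edgeR (-0.15, adjusted p = 0.0204). The 35 genes within 10 Mb had a median of -0.11, and of 0.03 after GC correction, where FNIP2 was at -0.10.

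The stretch before the FNIP1 start (131797017) is shown because it holds 2 E-boxes of the MiT/TFE type, at chr5:131797086-131797212 on the minus strand. Before the RRAGC start (38859772), chr1:38859859-38859922 on the minus strand holds 1 such E-box and, upstream of it, an AP-1 and CNC-MAF core. The far end of the RRAGC stretch reaches into the first exon of RRAGC-DT, a noncoding gene on the other strand (GENCODE 44), and the FNIP1 stretch meets no annotated exon.
FNIP1: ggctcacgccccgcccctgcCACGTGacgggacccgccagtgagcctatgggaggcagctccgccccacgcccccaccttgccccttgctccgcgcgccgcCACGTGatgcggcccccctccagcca
RRAGC: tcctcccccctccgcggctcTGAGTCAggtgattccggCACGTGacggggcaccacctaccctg
CACGTG was in 6.34% and TGAGTCA in 4.2% of the 35116 windows. Among windows of the other members, TGAGTCA was found in that of TFE3 and CATGTG (9.42% of all windows) in 1 of FNIP2, and FLCN, TFEB and TFEC held none of the 6 motifs.

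RRAGC (ENSG00000116954.8; chr1:38838198-38859772, minus strand) and RRAGD (ENSG00000025039.14; chr6:89364616-89412273, minus strand) encode RagC and RagD, alternative partners of RagA or RagB in the heterodimer and the substrates of folliculin. They moved in opposite directions. RRAGC had 1675, 1600.3 and 1484 normalized counts in GFP replicates 1 to 3, against 1314, 1353 and 1419 in T-MGM replicates 1 to 3. With means of 1586 ± 96.5 and 1362 ± 53.2 (SD, n = 3 each) it fell by 14%, which is -0.22 ± 0.05 in log2 units (SE; adjusted p = 0.000212, DESeq2). RRAGD had 2553, 2604 and 2635 normalized counts in GFP replicates 1 to 3, against 2969, 2976 and 2897 in T-MGM replicates 1 to 3. With means of 2597 ± 41.4 and 2947 ± 43.5 (SD, n = 3 each) it rose by 13.4%, which is 0.18 ± 0.04 in log2 units (SE; adjusted p = 1.81e-06, DESeq2). Neither gene had overlapping groups.

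RRAGC was lower in each of the 16 alternative fits, from -0.39 to -0.17, and passed in all of them. RRAGD was higher in each of the 16, from 0.08 to 0.27, and did not pass in the 3 fits on TPM (limma adjusted p = 0.458 to 0.580). Its 47 neighbours within 10 Mb had a median log2 fold change of 0.04, or 0.16 after GC correction, where RRAGD was at 0.27. The 187 neighbours of RRAGC were at -0.06, or -0.09 after GC correction, where RRAGC was at -0.17.

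The ratio of the 2 genes within a library does not depend on scaling between libraries. In TPM, RRAGD over RRAGC was 1.01, 1.20 and 1.23 in GFP replicates 1 to 3. In T-MGM replicates 1 to 3 it was 1.59, 1.74 and 1.44. The groups were apart, with means of 1.15 ± 0.120 in GFP and 1.59 ± 0.147 in T-MGM (SD, n = 3 each) and a 1.39-fold difference (0.47 on the log2 scale). The exact 2-sided permutation p was 0.10, the smallest that 3 against 3 libraries allow. From normalized counts the difference was 0.40 on the log2 scale. The summed normalized counts of RRAGC and RRAGD were 4119 to 4228 in GFP and 4282 to 4329 in T-MGM, also without overlap between the groups.

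FNIP2 over FNIP1 was 0.784, 0.783 and 0.928 in GFP replicates 1 to 3 against 0.774, 0.763 and 0.704 in T-MGM replicates 1 to 3, a log2 difference of -0.15 in TPM (exact 2-sided permutation p = 0.10). The T-MGM values were below the GFP values by as little as the gap between 0.774 and 0.783. From normalized counts the difference was -0.07 with overlapping groups (exact permutation p = 0.80), and without GFP replicate 3 it was also -0.07 in TPM. The MITF share of the summed MITF, TFEB, TFE3 and TFEC TPM was 93.5%, 93.4% and 94.0% in GFP replicates 1 to 3 against 92.9%, 93.2% and 93.1% in T-MGM replicates 1 to 3 (exact 2-sided permutation p = 0.10). MITF made up over 92% of the family's TPM in every library.

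**Figure D3:**
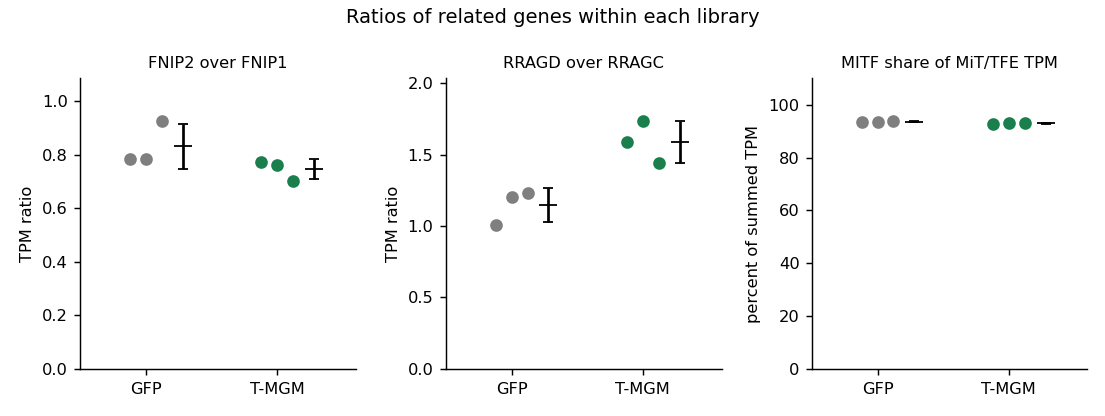
Ratios within each library, from TPM, with axes starting at 0; points are libraries and bars the mean ± SD of 3. RRAGD over RRAGC is 1.01 to 1.23 in GFP and 1.44 to 1.74 in T-MGM, FNIP2 over FNIP1 is 0.783 to 0.928 and 0.704 to 0.774, and the MITF share is 93.4% to 94.0% and 92.9% to 93.2%.

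Levels of different genes were compared per length, as TPM. In GFP libraries MITF led with 138 ± 1.56 TPM (SD, n = 3), followed by RRAGD at 14.7 ± 1.18, RRAGC at 12.8 ± 0.756, FNIP1 at 11.8 ± 0.452, FNIP2 at 9.80 ± 0.719, FLCN at 9.17 ± 0.792, TFE3 at 8.39 ± 0.367 and TFEB at 1.02 ± 0.304 TPM. TFEC was listed at 0, 0.01 and 0.04 TPM. The library ranges of RRAGC and FNIP1, of FNIP2 and FLCN and of FLCN and TFE3 overlapped, so those neighbours in the order did not differ beyond their spread. In T-MGM libraries MITF was at 133 ± 2.73 TPM and RRAGD at 15.5 ± 1.13. FNIP1 at 10.35 ± 0.350 TPM came next, followed by RRAGC at 9.76 ± 0.234, TFE3 at 9.18 ± 0.115 and FLCN at 9.10 ± 0.875, then FNIP2 at 7.74 ± 0.618 and TFEB at 0.713 ± 0.175 TPM. Here FNIP1 overlapped RRAGC and TFE3 overlapped FLCN. The FLCN range, 8.24 to 9.99 TPM, also overlapped that of RRAGC (9.62 to 10.03 TPM) and met the lowest FNIP1 value, 9.99 TPM.

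Levels set across groups in TPM carry a common shift, since the median log2 fold change of all genes was -0.13 on log2(TPM + 1) and -0.01 in the count fit. RN7SL1, a structural RNA, held 134141 to 138057 TPM in GFP and 158142 to 161371 TPM in T-MGM. Its part in that shift was not tested. Relative to the median gene the TPM changes were 0.07 for MITF, 0.25 for TFE3, -0.10 for TFEB, 0.12 for FLCN, -0.04 for FNIP1, -0.18 for FNIP2, -0.23 for RRAGC and 0.21 for RRAGD on the log2 scale.

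**Figure D4:**
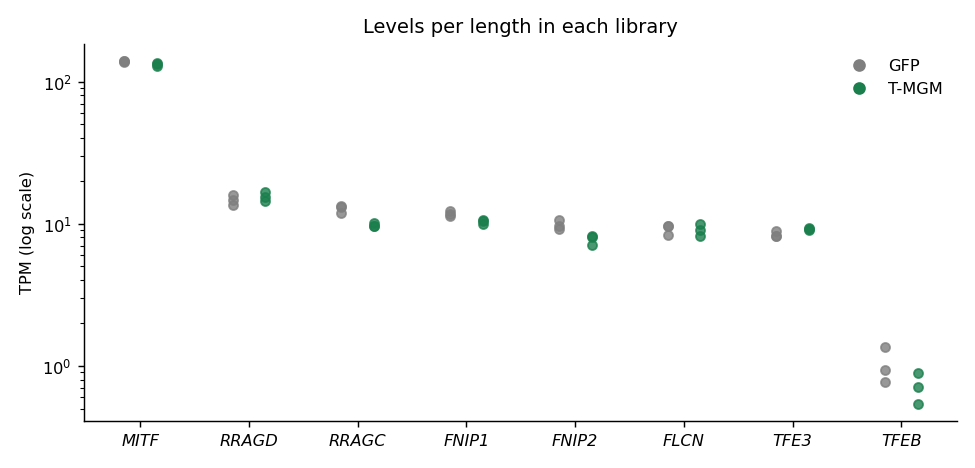
TPM per library on a log axis, in the order of the GFP means, with TFEC left out because several of its values are 0. MITF stands at 130 to 139 TPM, RRAGD to TFE3 between 7.03 and 16.7, and TFEB between 0.54 and 1.36.

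The genes closest to MITF and TFE3 over the 6 libraries were found by the root mean square difference between profiles of log2 normalized counts, each centred on its own mean, among 11653 genes with at least 100 mean normalized counts. For MITF these were PRAME, a cancer-testis antigen, at 0.0083, ANXA5, a phospholipid-binding annexin, at 0.0085 and IMPAD1 at 0.0087. For TFE3 they were GPR108 at 0.015, the co-chaperone BAG3 at 0.016 and the dynein adaptor BICD1 at 0.016. Each profile is mostly a step between the groups, of 0.08 for PRAME and 0.29 for GPR108, so likeness over 6 libraries is chiefly a like fold change.

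The wider pathway was read from 11 lists holding 80 genes. Of these, 79 were tested, and 22 were higher and 18 lower in the libraries labelled T-MGM, 50.6% of them beside 38.4% of all tested genes. None of those that passed changed over 2-fold, and the median log2 fold change was 0.02 beside -0.00 over all tested genes. With total-count scaling the split was 17 higher and 28 lower (14.8% and 23.5% of all tested genes), and on log2(TPM + 1) it was 9 higher and 30 lower (8.44% and 31.9% of all tested genes). In edgeR, which leaves out genes with few counts, 46.3% of 15648 tested genes passed, and 22 list genes were higher and 18 lower. In the DESeq2 fit, 50% of the Rag GTPase list passed, 40% of Ragulator, 14.3% of GATOR1 and KICSTOR and 40% of GATOR2. Of amino acid sensors 33.3% passed, of mTORC1, RHEB and TSC 55.6%, and of AMPK subunits 33.3%. Of the 14-3-3, exportin, calcineurin and MCOLN1 list 61.5% passed, and of upstream regulators of MITF 75%.

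On the Rag arm, RRAGA, which encodes the partner that RagC and RagD bind, had a mean of 1239 ± 43.0 normalized counts in GFP and of 1710.2 ± 60.5 in T-MGM (SD, n = 3 each), and rose by 0.47 ± 0.05 log2 units (SE; adjusted p = 1.18e-18, DESeq2). The 35 genes within 10 Mb of RRAGA had a median of -0.05. RRAGB did not pass. Of the 5 Ragulator genes, the lysosomal anchor of the Rag GTPases, LAMTOR1 was higher (0.12, where its 235 neighbours had a median of 0.23, and at -0.00 after GC correction) and LAMTOR3 lower (-0.35, SE 0.07, DESeq2 adjusted p = 1.8e-06, and at -0.20 after GC correction). Of the 7 GATOR1 and KICSTOR genes, which switch RagA off, NPRL2 alone passed, at 0.54 (SE 0.10, DESeq2 adjusted p = 9.97e-08). Of the 5 GATOR2 genes, which oppose GATOR1, SEC13 was higher at 0.40 and SEH1L lower at -0.21, the latter at -0.10 after GC correction (DESeq2 adjusted p = 0.108). NPRL2 and SEC13 both lie on chromosome 3, as MITF does, where neighbours had medians of 0.29 and 0.22. Among 6 amino acid sensors, SESN3 was higher at 0.12 and SESN2 lower at -0.27, and after GC correction they were at 0.27 and -0.39.

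MTOR, the kinase itself, had a mean of 9842 ± 42.3 normalized counts in GFP and of 7384 ± 26.8 in T-MGM (SD, n = 3 each), a log2 difference of -0.41 ± 0.02 (SE; adjusted p = 4.75e-89, DESeq2). Its 159 neighbours on chromosome 1 had a median of -0.25. Of the other 8 genes of mTORC1, RHEB and TSC, 4 were higher, MLST8 (0.32), TSC2 (0.18), AKT1S1 (0.11) and RPTOR (0.09), and 4 did not pass. After GC correction MLST8 was at 0.15 (DESeq2 adjusted p = 0.00645). TSC2 was then at 0.04, AKT1S1 at -0.02 and RPTOR at -0.04, and none of these 3 was past the threshold (DESeq2 adjusted p = 0.558, 0.667 and 0.273). Of 13 genes for 14-3-3 proteins, the exportin XPO1, calcineurin and the calcium channel MCOLN1, 4 were higher and 4 lower, with XPO1, YWHAZ and YWHAG each at -0.20 and the calcineurin subunit PPP3CA at 0.16. After GC correction XPO1 was at -0.06, YWHAZ at -0.09, YWHAG at -0.17 and PPP3CA at 0.23, all still past the threshold. Of 6 AMPK subunit genes, PRKAB2 (-0.43) and PRKAA1 (-0.20) were lower and 4 did not pass. PRKAA1 was at -0.05 after GC correction (DESeq2 adjusted p = 0.304).

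Among 12 tested autophagy and lysosome genes known as MiT/TFE targets, 1 was higher, 4 were lower and 7 did not pass. The share that passed was 41.7%, beside 38.4% of all tested genes. WIPI1, which binds phosphoinositides on forming autophagosomes, had a mean of 3686 ± 88.4 normalized counts in GFP and of 2028 ± 64.1 in T-MGM (SD, n = 3 each), a log2 difference of -0.86 ± 0.04 (SE; adjusted p = 1.82e-119, DESeq2), while its 155 neighbours had a median of 0.04. GPNMB, a melanosome and lysosome glycoprotein, fell by 0.40 (SE 0.02, DESeq2 adjusted p = 2.32e-82), where its 73 neighbours were at -0.18. RAB7A was at -0.13 and the two-pore channel gene TPCN2 at 0.32, the latter not past the threshold after GC correction (DESeq2 adjusted p = 0.0767). Among 11 MITF targets outside pigmentation, 6 were higher and 3 lower, 81.8% of them beside 38.4% of all tested genes. The cell cycle inhibitors CDKN2A (0.64, SE 0.02, DESeq2 adjusted p = 1.24e-193) and CDKN1A (0.40), the receptor MET (0.52) and the T-box factor TBX2 (0.37) were higher. After GC correction these were at 0.47, 0.27, 0.58 and 0.23. The 3 lower genes were BCL2 (-0.33), CDK2 (-0.09) and BRCA1 (-0.09), which after GC correction were at -0.30, -0.12 and -0.02, BRCA1 no longer past the threshold (DESeq2 adjusted p = 0.759).

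**Figure D5:**
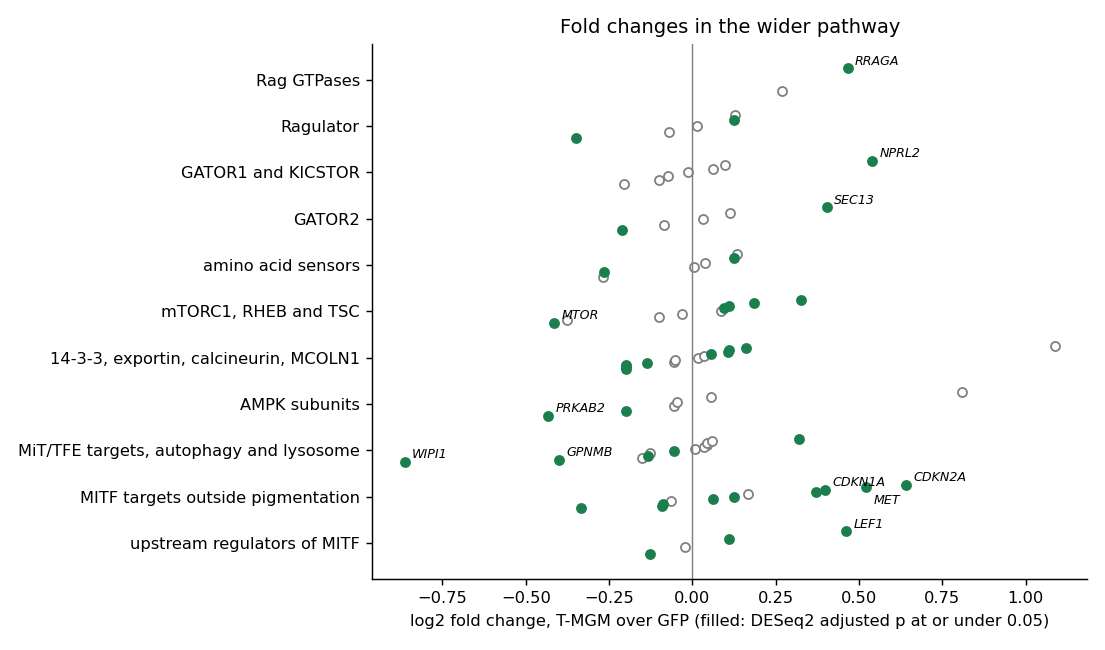
Log2 fold change (T-MGM over GFP) of the tested genes in each of 11 lists, filled where the DESeq2 adjusted p is at or under 0.05. Higher and lower genes occur side by side in most lists, with WIPI1 the lowest at -0.86 and CDKN2A the highest filled point at 0.64.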

How the data were processed

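Per the labels and the methods, the authors trimmed reads with cutadapt 1.8.1, aligned them to GRCh38 with STAR 2.7.7a and counted unique reads per gene with featureCounts, and the deposited counts are whole numbers, not normalized. The authors deposited TPM from RSEM 1.3.0 as well, with no depth kept. The annotation release is not given in the sources used here. Counts were compared with DESeq2 1.42.0 in R 4.3.3 (median-of-ratios scaling, 2-sided Wald test, group as the only term, Benjamini-Hochberg adjustment over all tested genes, threshold 0.05), as the methods name it. Members and lists were chosen with earlier results of these data known. From each list, at most 4 genes past the threshold with at least 100 mean normalized counts and the largest changes are named, besides all members. RPTOR, BCL2, CDK2 and BRCA1 were named after their values were seen. Positions are from GENCODE 44, which holds 99.4% of gene identifiers. Alternatives were edgeR 4.0.16 with TMM, TMM or total-count scaling, a filter of 10 counts in 3 libraries, every row kept in place of independent filtering, a replicate block, leaving out each library, lowess correction (span 0.3) for GC content and transcript length, and limma 3.58.1 on log2(TPM + 1) or log2(TPM + 0.1), with at least 0.5 TPM in 3 libraries or unfiltered. Ratios were compared by exact permutation in SciPy 1.17.1. Steps were tested on simulated data. Libraries of a group differed by more than sampling noise. One marker result is not reported here.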

Additional observations from a re-analysis of the deposited data

How the results depend on the processing

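The number of members past the adjusted p, 5 of 8, was 4 or 5 in edgeR and all DESeq2 alternatives, and 4 to 5 without 1 library. TFE3, RRAGC and RRAGD passed in each of these fits, and MITF in all but total-count scaling, where FNIP1 and FNIP2 both passed. FNIP2 passed in place of FNIP1 in edgeR, with the filter of 10 counts in 3 libraries and without T-MGM replicate 2. On log2(TPM + 1) and log2(TPM + 0.1) the number was 3 (FNIP1, FNIP2 and RRAGC), and 1 (RRAGC) without a filter, all lower, on a scale whose median gene is itself lower. TFE3, RRAGC and RRAGD kept their direction in all 16 alternatives, as did TFEB and FNIP2. MITF was at -0.062 in the 3 TPM fits. FLCN turned to -0.026 after GC and length correction and was at -0.011, -0.012 and -0.011 in TPM. Relative to the median gene on log2(TPM + 1), MITF was at 0.07 and FLCN at 0.12. FNIP1 turned to 0.052 after GC and length correction. The cause of these changes of sign was not tested. The replicate numbers do not pair the libraries in the labels, and deviations of same-numbered libraries from their group means correlated at -0.058 to 0.029 over genes. With the replicate number as a block 4 members passed, FNIP1 being lost (DESeq2 adjusted p = 0.140). Pathway genes past the threshold numbered 40 as reported and 38 to 45 in the alternatives run for them. RRAGD over RRAGC differed by 0.38 to 0.54 (log2) without 1 library. Depth limits TFEB and TFEC, at most 93 and 5 counts in a library.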
